A study of Mus musculus with 15 samples.

Results

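The Schlafen genes are a family of immune-linked genes that lie side by side in the mouse genome. Their 7 members studied here are Slfn1, Slfn2, Slfn3, Slfn4, Slfn5, Slfn8 and Slfn9, out of 30281 named genes counted in mouse skin. The members were taken by gene symbol, and the family was chosen by its library-scaled counts over the days sampled, which were already known. Their levels and fold changes are therefore given as a description, without p-values beside them. Members called by a p-value are listed further on, and nothing is read from those counts. RNA of wounded skin from C57BL/6 mice was sequenced at day 0, 1, 3, 5 and 7, with 3 libraries at each time and 15 in all. All libraries, the day 0 ones included, carry the wound label and no other treatment or genotype, so the earliest group is called day 0 and not unwounded skin. The skin was cleaned of muscle and fat before RNA extraction, and the sources used here give neither the age nor the sex of the mice. No label ties the libraries of a day to different animals. The p-values thus reflect only how far these samples scatter, and that scatter may be technical.

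Schlafens are named after the German word for sleeping, because the first members were found to hold back the growth of developing T cells. Mouse Schlafens fall into a short group (Slfn1, Slfn2), an intermediate group (Slfn3, Slfn4) and a long group (Slfn5, Slfn8, Slfn9) that adds a helicase-like part. They share an amino-terminal fold found in proteins that bind or cut RNA, many are induced by type I interferons, and their known sites of action are mostly T cells, monocytes, macrophages and neutrophils. In skin these cells arrive and leave as a wound closes.

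In these data the means of the 7 Schlafens shared a shape over time: each was highest at day 1, lower at each time after that than at the one before, and lowest of all at day 7. Slfn4, a gene of myeloid cells, covered the widest range, with 12.1 ± 7.11 CPM (counts scaled to the size of the library) at day 7 and 249 ± 72.8 CPM at day 1 (SD, n = 3 each). Slfn9 stood apart from the other 6 because its day 7 level, 22.5 ± 3.18 CPM, was back at the day 0 level of 23.2 ± 2.63 CPM (SD, n = 3 each) instead of below it. Highest means at day 1 were found for 22.6% of the 17136 genes tested, lowest means at day 7 for 23.9%, and a lower mean at each step after day 1 for 11.6%. In whole skin, fewer cells of a type and less RNA per cell cannot be told apart.

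The sequence upstream of the start sites divides the family by the letters it holds. RefSeq promoter windows on GRCm38.p6, reaching 250 bases before to 50 after each start, were matched for 7 of 7 members and searched on both strands for GAAANN followed by GAAA (N is any letter), the core of the textbook interferon-stimulated response element. The core was in the windows of Slfn5, Slfn8 and Slfn9 and in 3.44% of 32851 windows. A second run of letters, ACTTCCTGG, was spotted while the windows were read. It was in the windows of Slfn1, Slfn2, Slfn3 and Slfn4 and in 0.843% of all windows, and no member held both. Because this run was picked from these same windows, nothing is read from its share or from the split. The stretches below are shown because they carry this split. Capitals mark the core (read on the opposite strand in Slfn8 and Slfn9) or the second run, and each line reads 5′ to 3′ on the strand of the gene.
Slfn5, chr11:82951922-82951981, plus strand: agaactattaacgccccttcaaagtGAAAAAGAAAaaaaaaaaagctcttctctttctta
Slfn8, chr11:83020824-83020883, minus strand: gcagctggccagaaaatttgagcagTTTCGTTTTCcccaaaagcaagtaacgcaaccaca
Slfn9, chr11:82991841-82991900, minus strand: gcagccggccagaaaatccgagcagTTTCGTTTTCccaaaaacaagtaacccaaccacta
Slfn1, chr11:83116721-83116779, plus strand: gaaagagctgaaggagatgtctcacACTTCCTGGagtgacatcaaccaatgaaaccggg
Slfn2, chr11:83065032-83065090, plus strand: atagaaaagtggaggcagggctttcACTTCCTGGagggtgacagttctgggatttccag
Slfn3, chr11:83191263-83191321, plus strand: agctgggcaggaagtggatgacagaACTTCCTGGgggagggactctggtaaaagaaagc
Slfn4, chr11:83175088-83175146, plus strand: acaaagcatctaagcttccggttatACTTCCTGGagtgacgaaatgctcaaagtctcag
The first capital lies 155, 48 and 45 bases before the start of Slfn5, Slfn8 and Slfn9 in that order, and 74, 55, 42 and 73 bases before that of Slfn1, Slfn2, Slfn3 and Slfn4. Slfn8 has a second annotated start, from which the same core is 136 bases away. Of the interferon-stimulated antiviral genes described further on, 12 of the 18 with a window held the core, as did 2 of 13 genes of interferon signalling and none of the genes with a window in the other 13 lists. The second run was held by 1 of those 18 genes, 2 of those 13 and none in the other lists. A match is a run of letters in a window and not a shown site of binding. Slfn8 and Slfn9 hold the core at nearly the same distance. Whether either run bears on the levels given below was not tested.

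The libraries held 38062562 to 60450396 estimated counts each, and all 7 members passed the filter on low counts. Day 5 replicate 2 and day 7 replicate 3 were rich in hair: 9 hair follicle markers summed to 15608 and 19085 CPM there, against at most 1712 CPM in the other 13 libraries. Day 5 replicate 2 was the lowest day 5 library for 6 of the 7 members, Slfn4 being the exception. Day 7 replicate 3 was the lowest day 7 library for Slfn2, Slfn3, Slfn5 and Slfn8 and the highest for Slfn1, Slfn4 and Slfn9. Keratinocyte, fibroblast, endothelial and skeletal muscle markers were present in every library, with keratinocyte sums of 4459 to 13312 CPM and muscle sums of 1561 to 7788 CPM, so the cleaned skin still held muscle RNA.

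**Figure D1:**
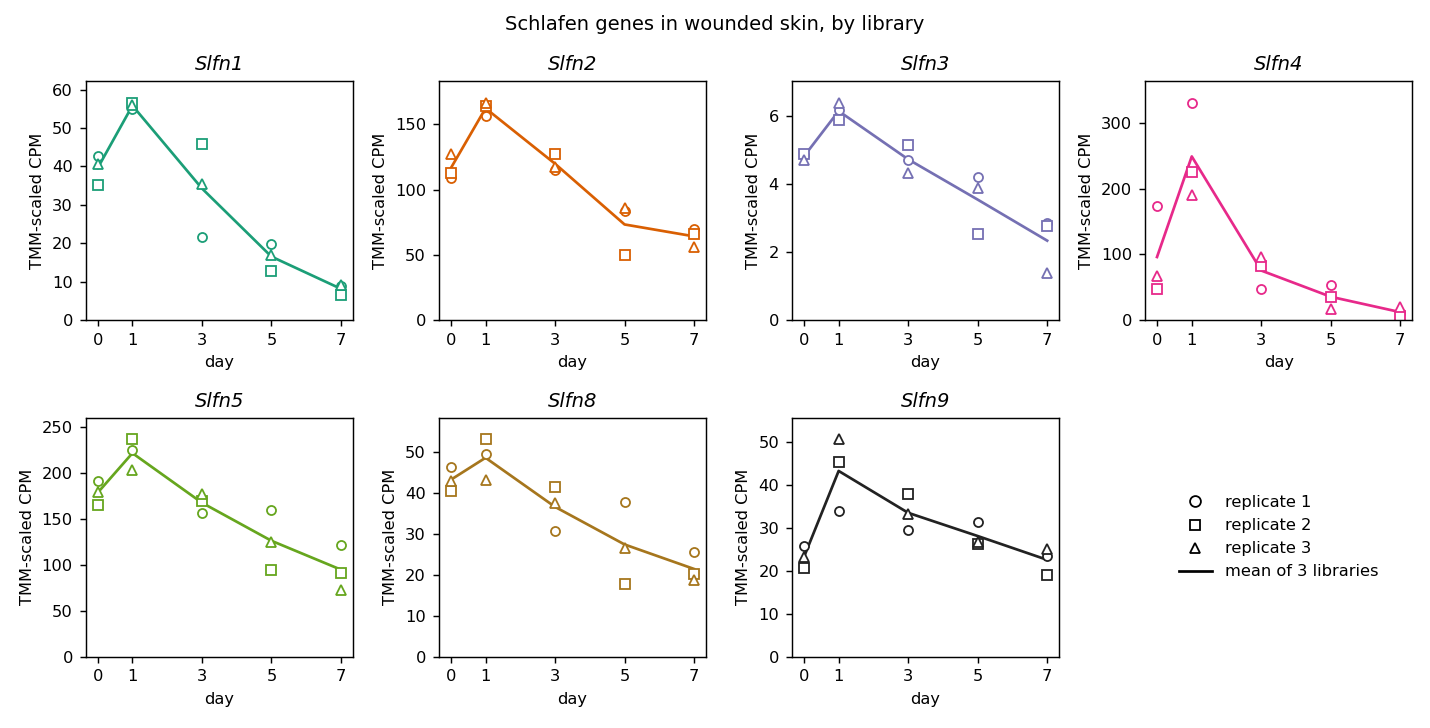
TMM-scaled CPM (y axes, from 0, scaled per gene) of the 7 Schlafen genes against the day of sampling (x axes), with 1 symbol per library and a line through the means of 3 libraries. Each gene is highest at day 1, Slfn4 reaching 331 CPM in day 1 replicate 1, and Slfn9 ends at its day 0 level.

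Of the short members, Slfn1 is the one whose forced expression stops the growth of mouse T cells. It had 42.8, 35.2 and 40.8 CPM at day 0, 55.0, 56.6 and 55.9 at day 1, 21.6, 45.9 and 35.3 at day 3, 19.9, 12.8 and 16.9 at day 5, and 8.77, 6.55 and 9.11 at day 7. The 3 day 1 libraries agree closely and lie above every other library, the 3 day 7 libraries lie below every other one, and day 3 scatters the most. Against day 0 the fitted log2 fold change was 0.50 ± 0.23 at day 1, -0.21 ± 0.23 at day 3, -1.26 ± 0.24 at day 5 and -2.28 ± 0.24 at day 7 (SE). Slfn1 is the one gene of the family whose libraries at day 7 and at day 5 do not overlap with each other and also lie below day 0.

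Slfn2 keeps T cells and monocytes quiescent in mice, and its loss leaves T cells unable to stay at rest. It had 109, 113 and 127 CPM at day 0, 156, 164 and 166 at day 1, 115, 127 and 117 at day 3, 83.6, 50.05 and 86.2 at day 5, and 70.0, 66.2 and 56.2 at day 7. The day 1 libraries lie above all others, day 3 is level with day 0, and day 5 and day 7 lie below day 0 and overlap with each other. The log2 fold change against day 0 was 0.48 ± 0.17 at day 1, 0.04 ± 0.17 at day 3, -0.67 ± 0.17 at day 5 and -0.86 ± 0.17 at day 7 (SE). Slfn2 and Slfn1 are neighbouring protein-coding genes on the same strand, with levels that part after day 3: the mean at day 7 was 64.1 ± 7.17 CPM against 116 ± 9.45 CPM at day 0 for Slfn2, and 8.14 ± 1.39 CPM against 39.6 ± 3.94 CPM for Slfn1 (SD, n = 3).

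Of the intermediate members, Slfn3 has been studied mainly in the gut lining of rodents, where it goes with differentiation. It was the weakest member in the skin, with 4.87, 4.88 and 4.71 CPM at day 0, 6.19, 5.88 and 6.40 at day 1, 4.71, 5.16 and 4.33 at day 3, 4.21, 2.54 and 3.90 at day 5, and 2.86, 2.76 and 1.39 at day 7. Day 1 lies above and days 5 and 7 lie below day 0, where the mean was 4.82 ± 0.098 CPM (SD, n = 3). The log2 fold change against day 0 was 0.35 ± 0.25 at day 1, -0.03 ± 0.25 at day 3, -0.44 ± 0.25 at day 5 and -1.04 ± 0.25 at day 7 (SE).

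Slfn4, its protein-coding neighbour, is an interferon-induced gene of mouse macrophages and other myeloid cells that falls as bone marrow cells mature into macrophages. It had 173, 47.3 and 67.5 CPM at day 0, 331, 226 and 191 at day 1, 46.8, 82.7 and 96.6 at day 3, 54.0, 35.7 and 16.8 at day 5, and 10.3, 5.98 and 19.9 at day 7. Day 0 replicate 1 is far above the other day 0 libraries and close to the lowest day 1 library. Day 3 and day 5 overlap with day 0, with or without that library, while day 1 lies above day 0 and day 7 below it. The log2 fold change against day 0 was 1.38 ± 0.56 at day 1, -0.35 ± 0.56 at day 3, -1.44 ± 0.57 at day 5 and -2.99 ± 0.60 at day 7 (SE). Without day 0 replicate 1 these became 2.12, 0.39, -0.69 and -2.25, so the direction at day 3 rests on that library. Its share of all Schlafen counts moved with its level: Slfn4 made up 3.94%, 2.83% and 9.81% of the family's summed CPM at day 7 and 38.6%, 28.7% and 26.6% at day 1.

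Of the long members, Slfn5 is interferon-induced and acts in the nucleus, where human SLFN5 restrains herpes virus transcription. It was the member with the most counts at 4 of the 5 times, with 191, 165 and 179 CPM at day 0, 225, 237 and 204 at day 1, 156, 169.8 and 177 at day 3, 159.8, 94.7 and 125 at day 5, and 121, 91.0 and 72.3 at day 7. Day 1 lies above day 0, day 3 overlaps with it, and days 5 and 7 lie below it. The log2 fold change against day 0 was 0.31 ± 0.19 at day 1, -0.09 ± 0.19 at day 3, -0.50 ± 0.19 at day 5 and -0.91 ± 0.19 at day 7 (SE).

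Slfn8 belongs to the same long group as human SLFN11, which cuts transfer RNA when DNA is damaged. It had 46.4, 40.3 and 42.8 CPM at day 0, 49.5, 53.0 and 43.1 at day 1, 30.6, 41.5 and 37.6 at day 3, 37.9, 17.9 and 26.4 at day 5, and 25.5, 20.1 and 18.7 at day 7. It is the only member whose day 1 libraries overlap with day 0, and days 5 and 7 lie below day 0. The log2 fold change against day 0 was 0.17 ± 0.22 at day 1, -0.24 ± 0.22 at day 3, -0.66 ± 0.22 at day 5 and -1.01 ± 0.22 at day 7 (SE).

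Slfn9, which neighbours Slfn8 among the protein-coding genes, had 25.8, 20.5 and 23.1 CPM at day 0, 33.9, 45.2 and 50.5 at day 1, 29.4, 37.9 and 33.1 at day 3, 31.3, 26.3 and 26.6 at day 5, and 23.5, 19.0 and 25.2 at day 7. All libraries of days 1, 3 and 5 lie above every day 0 library, and day 7 overlaps with day 0. The log2 fold change against day 0 was 0.90 ± 0.16 at day 1, 0.53 ± 0.16 at day 3, 0.28 ± 0.16 at day 5 and -0.04 ± 0.16 at day 7 (SE). No other member had its libraries of day 3 or day 5 above those of day 0.

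**Figure D2:**
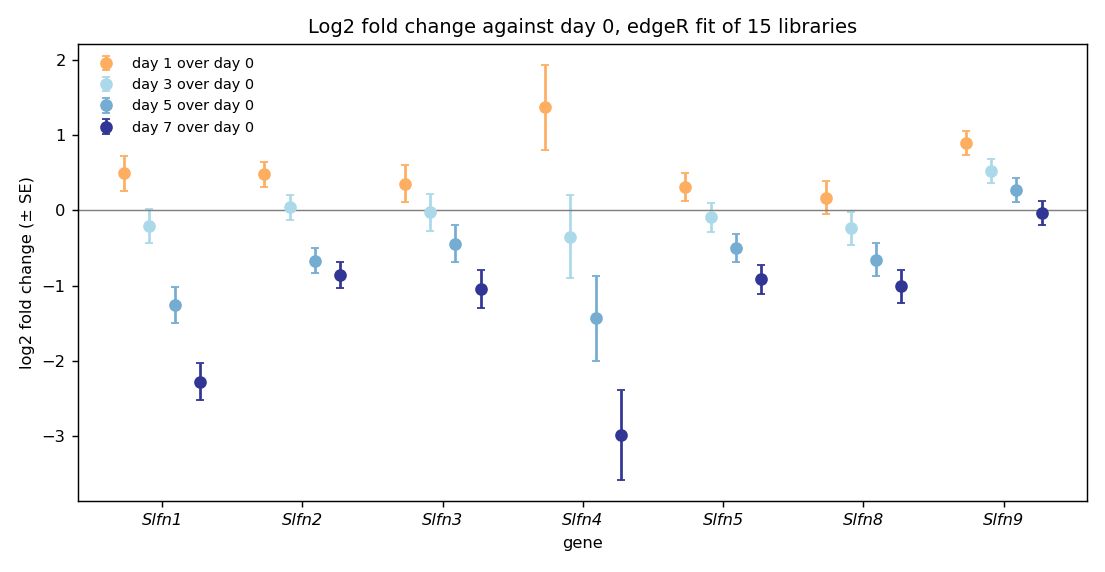
Fitted log2 fold change against day 0 (y axis, with SE bars, edgeR fit of 15 libraries) for each Schlafen gene (x axis) at day 1, 3, 5 and 7. The points step down from day 1 to day 7 in each gene, and Slfn9 alone ends near 0, at -0.04, while Slfn4 ends at -2.99.

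The ratio of Slfn9 to Slfn8 within a library shows how these neighbours parted. It was 0.556, 0.509 and 0.541 at day 0, 0.684, 0.853 and 1.17 at day 1, 0.961, 0.913 and 0.880 at day 3, 0.827, 1.47 and 1.01 at day 5, and 0.920, 0.945 and 1.35 at day 7. Each of the 12 later libraries lies above each of the 3 day 0 libraries, so in CPM Slfn9 drew closer to Slfn8, or passed it. These CPM are not set per length. Per kilobase of the longest or median transcript, the Slfn9 mean stayed below that of Slfn8 at each time. At day 7 it was 3.91 against 5.34 CPM per kb by the longest and 5.83 against 7.12 by the median. In GENCODE M21 transcripts, 19.1% of the 31-letter words of Slfn8 and 13.3% of those of Slfn9 occur in the other gene, which leaves most of their sequence distinct. Slfn3 and Slfn4 share 15.1% and 12.9% of theirs, and 19.8% and 10.1% of their words occur in genes outside the family. For Slfn3 this leaves 69.1% of words in no other gene, the lowest share of any member. For Slfn1 that share is 98%. Counts in shared stretches are split by the estimate and are uncertain. Added together before the fit, Slfn8 and Slfn9 gave log2 fold changes against day 0 of 0.47, 0.08, -0.26 and -0.59 at days 1, 3, 5 and 7, and Slfn3 with Slfn4 gave 1.34, -0.33, -1.37 and -2.81.

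**Figure D3:**
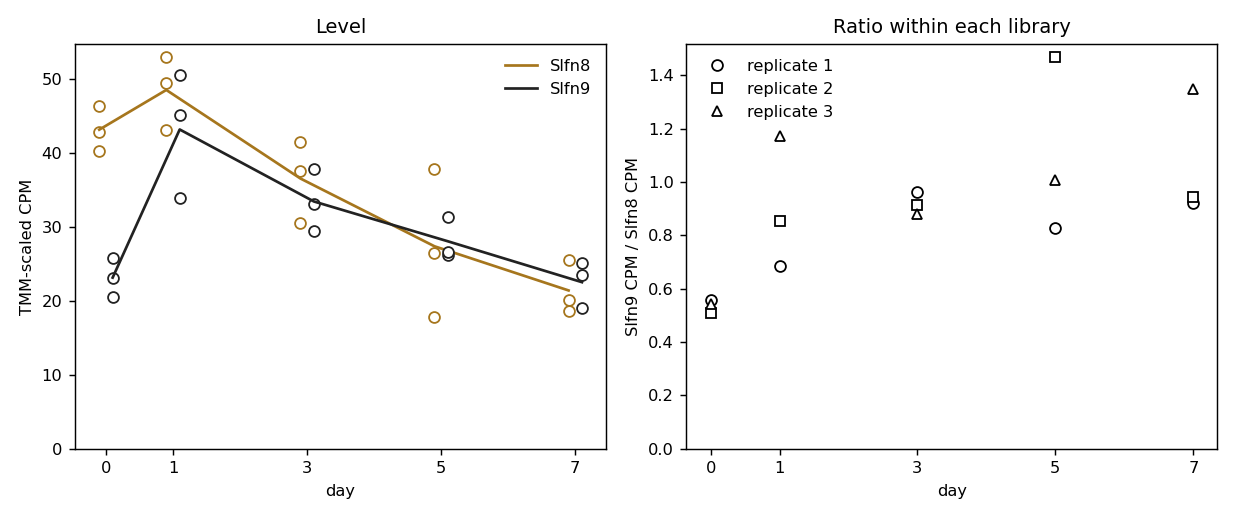
Left, TMM-scaled CPM of Slfn8 and Slfn9 (y axis, from 0) against day (x axis), 1 circle per library with lines through the means. Right, the ratio of Slfn9 to Slfn8 in each library (y axis, from 0), which is 0.509 to 0.556 at day 0 and 0.684 or more in every later library.

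Set per kilobase of the longest annotated transcript, so that genes can be compared, Slfn2 was the most abundant member at each time, with 38.5 ± 4.31 CPM per kb at day 7 and 97.5 ± 3.24 CPM per kb at day 1. Slfn3 was the least abundant at each time, with 0.83 ± 0.29 CPM per kb at day 7 and 2.17 ± 0.092 CPM per kb at day 1 (SD, n = 3 each). Slfn4 changed its place in the order: it was sixth at day 7, at 3.05 ± 1.80 CPM per kb, and second at day 1, at 62.9 ± 18.4 CPM per kb. At day 1 the order ran Slfn2, Slfn4, Slfn5, Slfn1, Slfn8, Slfn9, Slfn3, and the libraries of no neighbouring pair overlapped. At day 7 it ran Slfn2, Slfn5, Slfn8, Slfn1, Slfn9, Slfn4, Slfn3, and Slfn8 to Slfn4 were within reach of their neighbours' spread, with means of 5.34 ± 0.90 for Slfn8, 4.37 ± 0.75 for Slfn1, 3.91 ± 0.55 for Slfn9 and 3.05 ± 1.80 CPM per kb for Slfn4. The order depends on the length used. With the median transcript length Slfn5 was first and Slfn2 second at all 5 times, with 104 ± 7.89 CPM per kb for Slfn5 at day 1. Slfn4 was then behind both at day 1 and still sixth at day 7, Slfn3 stayed last, and Slfn1, Slfn8 and Slfn9 changed places among themselves at day 5 or day 7.

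**Figure D4:**
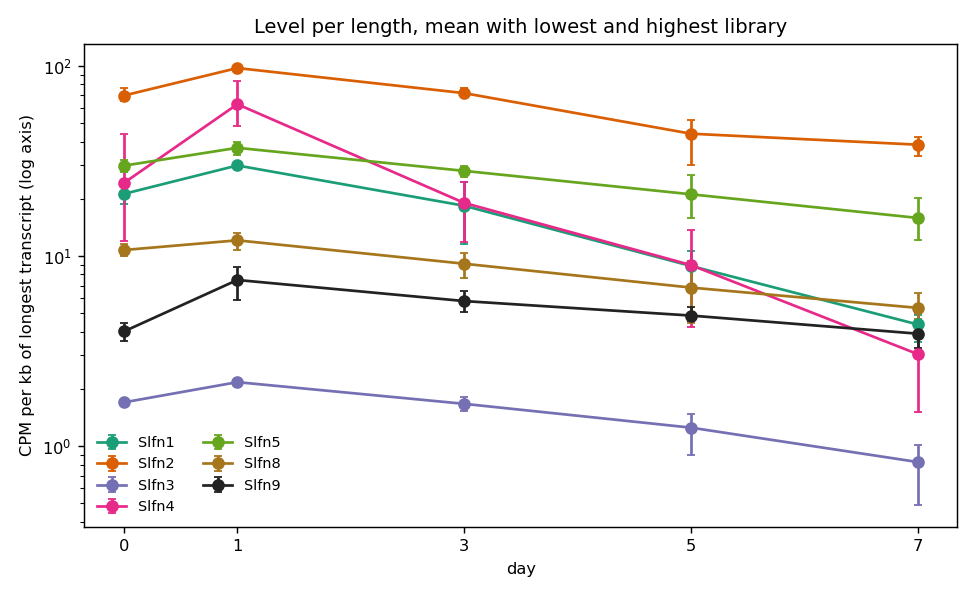
Level of each Schlafen gene per kilobase of its longest annotated transcript (y axis, log scale, CPM per kb) against day (x axis). Points are means of 3 libraries and bars reach from the lowest to the highest library. Slfn2 is on top and Slfn3 at the bottom throughout, while Slfn4 is sixth at day 7 and second at day 1.

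With calls made by edgeR at a Benjamini-Hochberg adjusted p under 0.05 over all genes, 1 member was called higher at day 1 than at day 0 (Slfn9), where 4.22% of all genes were. At day 3 no member was called and 0.788% of all genes were, in either direction. At day 5 Slfn1 was called lower, as were 0.292% of all genes. At day 7 the called members were Slfn1, Slfn2, Slfn3, Slfn4, Slfn5 and Slfn8, 6 of 7 and all lower, where 3.94% of all genes were lower. Because the same values led to the choice of the family, nothing is read from these counts. At an unadjusted p under 0.05 they were 3 higher at day 1, 1 higher at day 3, 5 lower at day 5 and 6 lower at day 7. Of all 17136 genes tested, 4633, 2707, 3374 and 4789 passed that p at these times, in either direction. DESeq2 called 2, 1, 2 and 6 members in the same directions, beside 2765, 957, 1171 and 2812 of all genes in either direction. The 4 comparisons share the day 0 libraries. Leaving out day 0 replicate 1 gave 5 at day 7, and leaving out day 0 replicate 2 gave 3. It was 2 with day 0 replicate 3, day 7 replicate 2 or day 7 replicate 3 absent, with Slfn1 called in each case. The call of Slfn9 at day 1 was lost without day 0 replicate 2 or replicate 3, while leaving out day 0 replicate 1 added Slfn4. The call of Slfn1 at day 5 was kept without day 0 replicate 1, and was lost without any other single library of day 0 or day 5 and without both hair-rich libraries, where its log2 fold change was -1.10 against day 0 and Slfn2 was called instead.

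Counted by overlap alone, 6 of 7 members had all day 1 libraries above all day 0 libraries, beside 19.8% of all genes, and 6 of 7 had all day 7 libraries below all day 0 libraries, beside 15.3% of all genes. At day 3 this held for 1 member, above day 0, beside 13.1%. At day 5 it held for 5 members below day 0, beside 13.8%, and for 1 above it, beside 12.3%. The median log2 fold change of the members against day 0 was 0.48, -0.09, -0.66 and -1.01 at days 1, 3, 5 and 7, while that of all genes stayed between -0.01 and 0.02. Between adjacent times, 6 members were lower without overlap at day 3 than at day 1 (13.2% of all genes), 3 at day 5 than at day 3 (11.9%), and 2 at day 7 than at day 5 (5.46%). No member was called in these steps by edgeR, which called 0.00584%, 0.0233% and 0.00584% of all genes in them. At an unadjusted p under 0.05 the members lower were 4, 2 and 3, beside 2199, 2586 and 1573 of all 17136 genes in either direction. DESeq2 called 1, 2 and 1 members lower, beside 462, 510 and 145 of all genes in either direction. Set against day 7, the day 1 mean was 1.92 times the day 7 mean for Slfn9, 6.86 times for Slfn1 and 20.6 times for Slfn4. Without both hair-rich libraries the members' log2 fold changes at day 7 against day 0 lay between -3.55 for Slfn4 and -0.12 for Slfn9, and the same 6 were called lower.

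The family's other rows were weak. Slfn10-ps, a transcribed pseudogene between Slfn8 and Slfn2, had 9.09, 9.92 and 8.54 CPM at day 1 and 5.97, 3.80 and 4.39 CPM at day 0. These libraries do not overlap, and the log2 fold change was 0.96 ± 0.29 (SE, edgeR adjusted p = 0.0609, with 0.0117 to 0.237 under the alternatives tried). At day 7 it had 4.21, 2.55 and 2.38 CPM, a log2 fold change of -0.63 ± 0.29 against day 0 (edgeR adjusted p = 0.179). It shares 32.4% of its 31-letter words with other Schlafens, so part of its counts could be theirs. Slfn14, a long member known from platelets, had 0 to 2 counts per library and Slfnl1, a distant relative, 0 to 5, and neither was tested.

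The annotation places Slfn5, Slfn9, Slfn8, Slfn10-ps, Slfn2, Slfn1, Slfn4, Slfn3 and Slfn14 in this order along chromosome 11, with the muscle chaperone gene Unc45b before Slfn5. Unc45b was not called in any comparison with day 0. It had 16.6 ± 7.65 CPM at day 7 and 26.1 ± 4.54 CPM at day 0 (SD, n = 3 each, edgeR adjusted p = 0.26). An antisense transcript, Slfn5os, shares 7.99% of the words of Slfn5. It was not among the rows counted, and the sources used here do not say whether counting used strand.

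Interferon-stimulated antiviral genes, which like many Schlafens respond to type I interferon, gave no call at day 1 or day 3, and most of them fell at day 7. Of 25 tested, edgeR called 0 at day 1 (3 higher and 1 lower at an unadjusted p under 0.05, 1 higher by DESeq2), 0 at day 3 (3 lower unadjusted, 0 by DESeq2), 1 lower at day 5 (18 lower unadjusted, 12 by DESeq2) and 22 lower at day 7 (25 unadjusted, 24 by DESeq2). The medians of their log2 fold changes were 0.13, -0.26, -0.76 and -1.38 at days 1, 3, 5 and 7. Ifit1bl1, of the family of proteins that bind foreign RNA ends, fell to 2.31 ± 0.60 CPM at day 7, against 15.6 ± 9.996 CPM at day 0 (log2 fold change -2.76 ± 0.45, edgeR adjusted p = 0.00886). Oas3, a sensor of double-stranded RNA, fell to 6.82 ± 1.61 CPM, against 34.2 ± 6.95 CPM (log2 fold change -2.33 ± 0.33, edgeR adjusted p = 0.00627). Oasl1, a relative that holds back Irf7 translation, fell by 2.22 ± 0.35 on the log2 scale. The day 5 call was Cmpk2, a mitochondrial nucleotide kinase, at -1.10 ± 0.22 (edgeR adjusted p = 0.0484). The day 7 count was 12 with day 7 replicate 2 or replicate 3 left out, and 14 with day 0 replicate 3 left out. At day 1 Rsad2, the antiviral viperin, had 105 ± 5.63 CPM against 54.3 ± 33.8 CPM at day 0 (log2 fold change 0.96 ± 0.34, edgeR adjusted p = 0.102).

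Genes of the type I interferon receptor and its signalling gave fewer calls. Of 15 tested, 1 rose at day 1, none was called at day 3 (1 higher and 1 lower unadjusted, 0 by DESeq2), 1 fell at day 5 (6 lower unadjusted, 3 by DESeq2) and 5 fell at day 7 (10 lower unadjusted, 7 by DESeq2), with medians of -0.07, 0.01, -0.32 and -0.59. Irf7, the transcription factor that amplifies interferon production, fell to 55.8 ± 12.4 CPM at day 7, against 207 ± 29.1 CPM at day 0 (log2 fold change -1.89 ± 0.32, edgeR adjusted p = 0.0101). Usp18, which removes Isg15 and damps the receptor, fell by 1.26 ± 0.25 at day 5 and by 1.44 ± 0.25 at day 7 on the log2 scale, and Stat2, a signal carrier, by 0.87 ± 0.19 at day 7. Socs3, a feedback inhibitor of cytokine receptors, was the gene that rose at day 1, to 208 ± 49.1 CPM against 50.04 ± 37.2 CPM at day 0 (log2 fold change 2.05 ± 0.38, edgeR adjusted p = 0.0148). The day 7 count was 3 without day 0 replicate 2 or day 7 replicate 2, and 2 without day 0 replicate 3 or day 7 replicate 3.

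**Figure D5:**
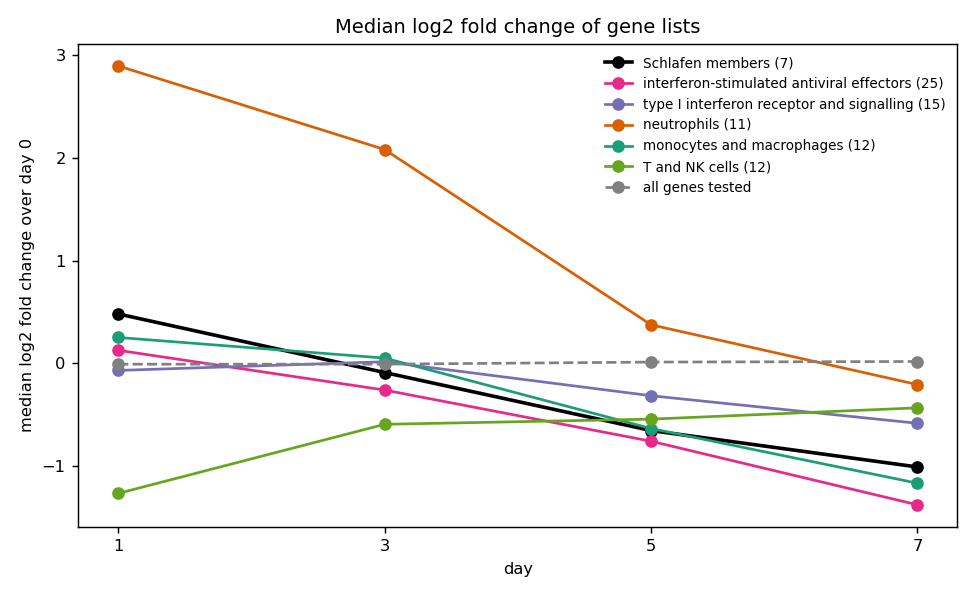
Median log2 fold change against day 0 (y axis) at day 1, 3, 5 and 7 (x axis) of the 7 Schlafens, of interferon and cell type marker lists (number of genes tested in brackets) and of all genes tested. At day 7 the Schlafen median is -1.01, that of interferon-stimulated genes -1.38 and that of neutrophil markers -0.21, while at day 1 they are 0.48, 0.13 and 2.90 in the same order.

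Slfn2 is known to protect transfer RNA from cutting, and a list of nucleases and transfer RNA genes held 12 tested members. Of these, Zc3h12a, an inflammatory RNase, rose at day 1 by 0.66 ± 0.13 on the log2 scale and 3 fell at day 7, among them Samhd1, which clears nucleotides, at -1.08 ± 0.22. None was called at day 3 or day 5 by edgeR (1 higher and 1 lower, then 1 higher and 2 lower, unadjusted; 0 and 1 by DESeq2). Of 11 genes of lymphocyte quiescence, 3 rose and 1 fell at day 1, 1 rose at day 3, none was called at day 5 (4 higher and 1 lower unadjusted, 1 in each direction by DESeq2) and 2 rose at day 7. Btg1, an antiproliferative gene, rose to 249 ± 44.7 CPM at day 7, against 144 ± 5.43 CPM at day 0 (log2 fold change 0.79 ± 0.12, edgeR adjusted p = 0.00886), while Slfn2 had 64.1 CPM at day 7 and 116 CPM at day 0. Of 15 cell cycle genes, 6 rose at day 1, with Ccne2, the cyclin of S phase entry, at 1.08 ± 0.29, none was called at day 3 or day 5 (13 and 5 higher unadjusted, 7 and 0 by DESeq2) and 1 rose at day 7. The day 1 count was 0 without any single day 1 library or without day 0 replicate 2 or replicate 3, where 7 to 14 passed an unadjusted p under 0.05. It was 2 without the filter on low counts and 3 with the replicate block.

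Markers of the blood cells that carry Schlafens moved in the same samples. Neutrophil markers, all 11 of them present at day 1, summed to between 80.9 and 253 CPM at day 0, between 885 and 1382 at day 1, between 583 and 991 at day 3, between 166 and 408 at day 5 and between 63.0 and 276 at day 7. Of the 11, 8 rose at day 1 against day 0, and S100a9, a calcium-binding protein that fills neutrophils, had 567 ± 149 CPM at day 1 and 43.9 ± 41.1 CPM at day 0 (log2 fold change 3.69 ± 0.95, edgeR adjusted p = 0.0391). This count was 2 when day 0 replicate 2 was absent and 3 when day 0 replicate 3 or any 1 of the day 1 libraries was. The defining marker Ly6g was at 1.47 ± 0.063 CPM at day 1 and 0.073 ± 0.068 CPM at day 0. The library with the highest neutrophil sum of its time also had the highest Slfn4 at day 0 (replicate 1), day 5 (replicate 1) and day 7 (replicate 3), and the lowest Slfn4 at day 1 (replicate 3) and day 3 (replicate 1).

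Monocyte and macrophage markers, 12 in all and present in every library, summed to between 3234 and 4575 CPM at day 0, between 3545 and 4240 at day 1, between 4289 and 4581 at day 3, between 1921 and 3399 at day 5 and between 1943 and 3265 at day 7. Against day 0, 2 rose at day 1, none was called at day 3 or day 5 (1 higher and 1 lower, then 8 lower, unadjusted; 1 higher and 4 lower by DESeq2) and 7 fell at day 7. Ly6c2, the marker of inflammatory monocytes, fell to 8.16 ± 2.81 CPM at day 7, against 70.3 ± 39.6 CPM at day 0 (log2 fold change -3.10 ± 0.52, edgeR adjusted p = 0.00974), and Fcgr1, an antibody receptor of macrophages, to 23.3 ± 1.78 CPM, against 82.2 ± 19.4 CPM (log2 fold change -1.82 ± 0.26, edgeR adjusted p = 0.00627). The count of 7 became 4 without day 0 replicate 2 or day 7 replicate 2, and 3 without day 0 replicate 3 or day 7 replicate 3. T and NK cell markers took another course: 5 of 12 fell at day 1, when every Schlafen mean was highest, Cd3e of the T cell receptor complex to 1.88 ± 0.48 CPM against 5.25 ± 1.60 CPM at day 0, and none was called from day 3 on by edgeR (5, 2 and 0 lower unadjusted, 2, 0 and 0 by DESeq2). The count of 5 was 0 or 1 with any single day 1 library, day 0 replicate 2 or day 0 replicate 3 left out, where those at 0 had 7 to 10 at an unadjusted p under 0.05, and 8 with day 0 replicate 1 left out. It was 2 with the replicate block and 9 by DESeq2. Their sums, which include the widely expressed Thy1, ran from 185 to 297 CPM over all libraries. In the other 7 marker lists edgeR called few genes: 1 of B cells and 2 of dendritic cells fell at day 1, 1 of fibroblasts rose and 2 fell at day 1, Krt14 of keratinocytes rose at day 3 and Acta1 of muscle fell at day 7. Endothelial and hair follicle markers gave no call against day 0, with 3 endothelial ones higher at day 3 at an unadjusted p under 0.05 and by DESeq2, and 0 of hair follicles by either. The part of any of these cells in the Schlafen levels was not tested.

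The genes whose log2 CPM over the 15 libraries was most like that of each member, by Pearson's r and as a description, were partly the same immune genes. Libraries of a time share that time, so these values largely repeat the course over days. Slfn1 was most like Fcgr1, Oas3, Oas1a, Oasl1 and Ms4a4c, each at 0.98. Slfn4 was most like Cd177, a neutrophil surface protein, at 0.96, followed by Oasl1, Rsad2, Ifit1bl1 and I830127L07Rik at 0.94 to 0.95. Cd177 had 1.14 ± 1.35 CPM at day 0, 4.26 ± 0.77 at day 1, 1.36 ± 0.51 at day 3, 0.46 ± 0.18 at day 5 and 0.13 ± 0.11 at day 7 (SD, n = 3). Slfn5 was most like Ifi207, of the interferon-inducible family of DNA sensors, at 0.98, and Slfn8 like Trim30d at 0.98, and both had Trim30a among their first 5. Slfn2 was most like Fam111a, a protease that restricts viruses, at 0.98, with the leukocyte genes Hcls1 and Lyn at 0.98 and Cd53 at 0.97. Slfn3 was most like Gpr146 at 0.97. Slfn9 had the lowest values, with Ripk3, a kinase of inflammatory cell death, at 0.92 and the replication gene Mcm4 at 0.91. Ripk3 had 14.7 ± 4.46 CPM at day 0, 29.4 ± 2.33 at day 1, 23.6 ± 2.86 at day 3, 16.0 ± 3.08 at day 5 and 12.7 ± 1.57 at day 7 (SD, n = 3).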

How the data were processed

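RNA-seq of mouse skin was used as deposited by the authors: estimated counts per gene symbol, 1 table for each library. Per the submitters' processing notes the tool was kallisto 0.43. Its index, the genome build, the strand setting and the way transcripts became genes: not given in the sources used here. The estimated counts were whole numbers and rounding left them unchanged. Of 30307 rows, 26 carried calendar dates in place of symbols and were dropped, which removed between 0.155% and 0.179% of each library's counts. Depth was 38062562 to 60450396 counts per library, so counting error is smaller for all members than the common biological coefficient of variation of 30.9%.

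A quasi-likelihood model (edgeR 4.0.16, limma 3.58.1, R 4.3.3) with TMM scaling, a minimum count of 10 in edgeR's expression filter and robust dispersions was fitted to all 15 libraries, with the 5 times as groups and 17136 genes tested. Two-sided p-values were adjusted over these 17136 genes (Benjamini-Hochberg). CPM are TMM-scaled, and log2 CPM for likeness used a prior count of 2. Fits were tested on simulated data. The members and the 15 gene lists were chosen with earlier results of these data known. Of the 157 list genes, 156 were in the tables. Named from each list and comparison are the called genes that changed most, up to 3, or the gene of smallest p if none was called, and some of these are left out for length. Genes most like a member are the first 5 by Pearson's r. GENCODE M21 gave transcript lengths, shared words and gene order, and RefSeq on GRCm38.p6 gave promoter windows. Alternatives were RLE size factors, no filter, a replicate block, DESeq2 1.42.0, summed neighbours and leaving out libraries. Results of some genes are not reported here.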

Additional observations from a re-analysis of the deposited data

How the results depend on the processing

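The members' log2 fold changes were recomputed under 546 alternative values. Of these, 529 moved by less than the spread between libraries and 17 by more, and none turned a called change round. Of the 17, 14 came from adding neighbours together (Slfn3 with Slfn4, Slfn8 with Slfn9), which replaces 1 gene's value by a sum, and 3 were Slfn8 values without day 5 replicate 1, where its change at day 5 against day 0 was -0.96. Slfn9 at day 7 against day 0 ran from -0.12 to 0.07, so its direction there depends on the library left out.

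Counts over all genes depended strongly on the method. Leaving out the filter gave 71 genes at day 3 against day 0 and 9 at day 5 against day 3. DESeq2 called 2765, 957, 1171 and 2812 genes at days 1, 3, 5 and 7 against day 0, and 462, 510 and 145 in the steps between adjacent times. Without both hair-rich libraries, an alternative chosen after seeing the data, 306 genes were called at day 5 and 786 at day 7 against day 0, with 0 at day 5 against day 3 and 0 at day 7 against day 5 (2082 and 1981 at an unadjusted p under 0.05). Leaving out 1 library gave between 33 and 2411 genes at day 1, between 0 and 629 at day 3, between 0 and 495 at day 5 and between 279 and 2074 at day 7 against day 0. It gave between 0 and 29 at day 3 against day 1, between 0 and 25 at day 5 against day 3 and 0 or 1 at day 7 against day 5. Where a count was 0, between 1043 and 3046 genes passed an unadjusted p under 0.05. The lowest counts were without day 0 replicate 2 at day 1 and without day 0 replicate 3 at day 7. The cause was not tested. RLE size factors and summed neighbours left these counts within 1.5 times.

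Replicate numbers showed no pairing of the samples that held over all 5 times. Over 30 pairs with the same number the correlation of deviations from the time means ran from -0.73 to 0.49, with 13 above 0.1. Of 15 libraries, 4 were most like one of their own number. With day 5 set aside, libraries numbered 1 were positively correlated in every pair (0.09 to 0.42). So were those numbered 3 (0.09 to 0.49), while those numbered 2 were not (-0.13 to 0.13). Day 5 broke this order: its replicate 3 gave -0.73 with day 7 replicate 3, and its replicate 2 gave 0.78 with that library. The reason was not tested. With 3 libraries at each time, this check cannot exclude a shared animal or batch behind the numbers. With the replicate block, 862, 78 and 27 genes were called at days 1, 3 and 5 against day 0, and 4, 1 and 0 in the steps (1438 at an unadjusted p under 0.05 in the last). The block dropped the call of Slfn1 at day 5 and left the members called at day 1 and day 7 the same. The effect of depth on the calls was not tested.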
